A study of Homo sapiens with 39 samples.

Results

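The 10 genes described here handle lipid in macrophages and include receptors and targets of the LXR and PPAR nuclear receptors: APOC1, APOE, CD36, LPL, FABP4, ABCA1, ABCG1, CYP27A1, NR1H3 and PPARG. They were chosen by name, with earlier results of these data known, and are 10 of 18132 genes tested. Each gene was read from the probe sets annotated to its symbol alone, 25 in all for the 10 genes, and its main probe set was the one with the highest mean over the 39 arrays. The arrays measured mRNA in 7 human acute myeloid leukemia (AML) cell lines, the erythroleukemia line OCI-M1, the monocytic lines NOMO-1 and Sig-M5, and MV-4-11, OCI-AML3, Kasumi-1 and KG-1a, exposed for 24 h either to tamibarotene (SY-1425), a synthetic agonist of retinoic acid receptor alpha, or to DMSO as vehicle. The drug was added at 100 nM to reach 50 nM in the culture, per the labels. Each line had 3 tamibarotene arrays, and vehicle was run on 2 arrays in Sig-M5, Kasumi-1 and KG-1a and on 3 in each other line. No group carries an engineered allele in the labels. All are established lines in culture, so none of them is a macrophage.

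Macrophages take up lipoproteins and fatty acids through scavenger receptors such as CD36, break the cargo down in lysosomes, store the surplus as esters, and return cholesterol to apolipoproteins through the ABCA1 and ABCG1 pumps. LXRs, nuclear receptors switched on by oxysterols, induce the pumps and the apolipoprotein gene cluster that holds APOE and APOC1, and PPAR-gamma, a nuclear receptor for fatty acids, induces CD36, FABP4 and NR1H3, the gene of LXR-alpha. LXRs, PPARs and retinoic acid receptors each bind DNA as pairs with the same partner, the retinoid X receptor RXR.

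Levels are normalized intensities in log2 units, in which a step of 1 is a doubling, and array medians ran from 5.01 to 5.17. Of 10 macrophage markers, 2 to 5 had a mean above the array median in every one of the 14 groups (a line in 1 arm). The lowest marker of the list had a mean of 2.52 to 3.02 in the vehicle groups. CD68, a lysosomal glycoprotein of macrophages and monocytes, was the highest of them in every line but KG-1a, from 7.08 in Sig-M5 to 10.81 in NOMO-1 in vehicle. All 7 measured myeloid and leukemia markers were above the array median in the vehicle arrays of Kasumi-1, MV-4-11 and Sig-M5, 6 in NOMO-1, and 5 in KG-1a, OCI-AML3 and OCI-M1. OCI-M1 was the line with erythroid markers at high levels: the erythroid transcription factor KLF1 had a mean of 11.32 in its vehicle arrays. In the vehicle arrays of KG-1a 3 of the 7 measured lymphoid markers were above the array median. The highest of them was the T cell marker CD3D, with a mean of 12.26, against a median level of 4.58 for the list. The 3' minus 5' signal of actin, which is larger in degraded RNA, stood out on 3 vehicle arrays, at 0.81 and 1.89 for Sig-M5 and at 1.18 for replicate 2 of Kasumi-1, and was -0.02 to 0.56 on the other 36 arrays. The labels do not say whether replicates are separate cultures, so p-values measure the spread between these samples, which may be technical.

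With tamibarotene at least 1 of the 10 genes changed in 5 of the 7 lines, and which genes changed varied from line to line. APOC1 rose 15.9-fold in MV-4-11, CD36 8.81-fold in Sig-M5 and CYP27A1 8.02-fold in NOMO-1, while LPL fell 2.03-fold in NOMO-1 and CD36 fell 2.15-fold in OCI-M1. Of the 70 differences between arms, 1 for each gene and line, 11 rose, 4 fell and 55 were not called (limma, adjusted p under 0.05 over all genes). The share of all genes called in a line ran from 0.48% to 8.5% up and from 0.386% to 18.4% down. APOE and ABCG1 were called in no line, and neither had an unadjusted p under 0.05 by limma in any of the 7 (0 of 7 for each). In none of the 15 called differences did the treated and vehicle arrays overlap. Several uncalled differences did not overlap either, such as APOC1 in KG-1a and OCI-M1 and CD36 in Kasumi-1. With 2 or 3 arrays in an arm, the lack of overlap adds little to a call, and its share over all genes was not counted. In bulk RNA such as this, fewer cells expressing a gene and less of its RNA per cell cannot be told apart.

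By line, NOMO-1 had 5 of the 10 genes up and 1 down, against a background of 2.77% of all genes up and 0.711% down in that line. As the members were chosen with earlier results of these data known, such counts describe them and do not test for an excess. OCI-AML3 had 3 up and 1 down, against 5.5% and 6.36%. In Sig-M5, where 8.5% of all genes rose and 18.4% fell, 2 of the 10 rose and 1 fell. MV-4-11 had 1 up and 0 down, against 4.32% and 3.4%. OCI-M1 had 0 up and 1 down, against 0.7% and 0.386%. No member was called in Kasumi-1, where 0.48% of all genes rose and 2.36% fell, or in KG-1a, where the shares were 1.21% and 1.88%. At an unadjusted p under 0.05, limma passed 1 of the 10 genes in Kasumi-1, CYP27A1, and 0 in KG-1a. The median difference of the 10 genes was 0.36 in NOMO-1 against 0.02 over all genes. In Sig-M5 it was -0.05 against -0.10, and in the other 5 lines it lay between -0.07 and 0.18 against -0.03 to -0.01. For the mean of the 7 lines' differences, APOC1, CD36, CYP27A1, ABCA1 and PPARG rose (5 of 10) and LPL fell, with 6.71% of all genes up and 12.4% down. Each of these means joins lines that differ: the response differed between lines for 8 of the 10 genes by limma's F test, which 27.4% of all genes passed.

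**Figure D1:**
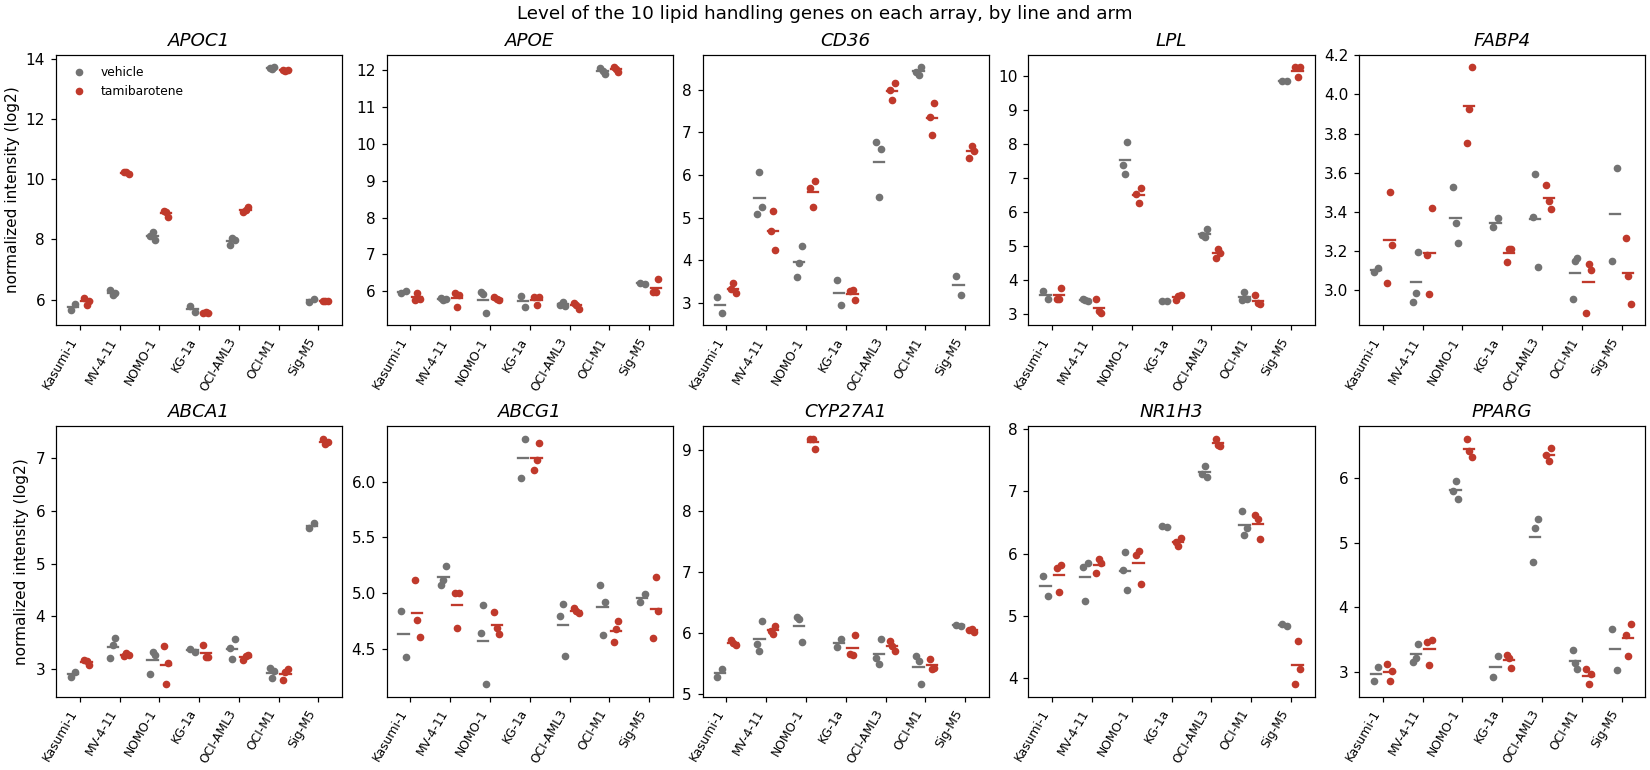
Normalized intensity (log2) of the 10 genes on each of the 39 arrays, by cell line, with vehicle in grey and tamibarotene in red. Points are arrays, bars are group means, and each panel has its own vertical axis. APOC1 in MV-4-11 moves from a vehicle mean of 6.23 to 10.22, and CYP27A1 in NOMO-1 from 6.12 to 9.13, while APOE has group means of 11.99 and 12.03 in OCI-M1 and is far lower in the other lines in both arms.

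APOC1 encodes a small apolipoprotein of triglyceride-rich lipoproteins and HDL. Its vehicle level was highest in OCI-M1, at 13.70, 13.68 and 13.73. NOMO-1 (mean 8.12) and OCI-AML3 (7.94) came next and overlapped each other, followed by MV-4-11 (6.23), Sig-M5 (5.97), Kasumi-1 (5.75) and KG-1a (5.69), of which the last pair overlapped.

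In MV-4-11 the vehicle arrays read 6.31, 6.16 and 6.22 and the tamibarotene arrays 10.26, 10.23 and 10.18. The difference was 3.99 ± 0.08 (SE, n = 3 against 3; limma, adjusted p = 5.25e-26), and all treated arrays lay far above the vehicle arrays. In OCI-AML3 the level went from 7.82, 8.03 and 7.96 to 8.92, 8.97 and 9.09. That was a rise of 1.05 ± 0.08, or 2.08-fold (limma, adjusted p = 1.55e-11), again with no overlap. NOMO-1 showed the third rise, from 8.13, 8.26 and 7.97 to 8.94, 8.92 and 8.75, a difference of 0.75 ± 0.08 (limma, adjusted p = 9.39e-08). In OCI-M1, where the gene was already the highest, the treated arrays read 13.63, 13.62 and 13.63. The difference there was -0.08, with a 95% interval of -0.24 to 0.08. In Kasumi-1, KG-1a and Sig-M5 it was 0.18, -0.12 and -0.02. The response of MV-4-11 exceeded the mean response of the other 6 lines by 3.70 ± 0.09 (limma, adjusted p = 1.18e-23), a test that 4.79% of all genes passed.

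The 5 probe sets of APOC1 were not alike. The probe set with the second highest mean moved with the main one, by 4.58 ± 0.24 in MV-4-11, 0.96 in OCI-AML3 and 0.89 in NOMO-1. In Kasumi-1 and Sig-M5, where the main probe set differed by 0.18 and -0.02, it differed by -0.54 and -0.36. The other 3 differed by 0.18, 0.07 and 0.36 in MV-4-11. With the mean of all 5 probe sets, the NOMO-1 difference was 0.31 (limma, adjusted p = 0.131) and was no longer called, while MV-4-11 (1.84) and OCI-AML3 (0.43) stayed called at smaller sizes. The APOC1 pseudogene APOC1P1 lies next to the gene, and whether the probe sets also bind its transcripts was not tested.

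APOE, the neighbour of APOC1 and the main apolipoprotein secreted by macrophages, gave a different picture. Its vehicle arrays in OCI-M1 read 12.08, 11.98 and 11.90, and the means of the other 6 lines lay between 5.64 and 6.21. With tamibarotene the OCI-M1 arrays read 12.09, 12.04 and 11.95, so both arms overlapped there. In MV-4-11, where APOC1 rose 15.9-fold, the APOE arrays went from 5.81, 5.75 and 5.79 to 5.94, 5.57 and 5.89. The difference was 0.02, with a 95% interval of -0.22 to 0.26. Over the 7 lines the differences ran from -0.14 in Kasumi-1 to 0.04 in KG-1a, the arrays of both arms overlapped in every line, and the response did not differ detectably between lines (limma F, adjusted p = 0.927). APOE had only 1 probe set, of a type whose probes may also bind other transcripts.

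CD36, the scavenger receptor that takes up oxidized lipoproteins and fatty acids, was the member called in the most lines, with 3 rises and 1 fall. In vehicle it was highest in OCI-M1 (mean 8.43), then in OCI-AML3 (6.29) and MV-4-11 (5.46), whose arrays overlapped, and lower in NOMO-1 (3.96), Sig-M5 (3.41), KG-1a (3.24) and Kasumi-1 (2.95), in which each line overlapped the next. Sig-M5 went from 3.63 and 3.19 in vehicle to 6.40, 6.68 and 6.57 with tamibarotene. The rise of 3.14 ± 0.31 (limma, adjusted p = 4.11e-09) took the line from below the array median to above it. Its vehicle arrays were those with the high actin difference. Without vehicle replicate 2, the array with the larger actin difference, the rise was 2.92, and with that difference as a covariate it was 3.03.

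In OCI-AML3 the CD36 arrays moved from 6.77, 5.49 and 6.62 to 7.99, 7.77 and 8.15. Vehicle replicate 2 was the low array of the group, and even the highest vehicle array lay below every treated one, with a difference of 1.68 ± 0.27 (limma, adjusted p = 3.63e-05). NOMO-1 rose from 3.61, 3.94 and 4.33 to 5.70, 5.24 and 5.85. Its difference was 1.63 ± 0.27, or 3.10-fold (limma, adjusted p = 0.0002). OCI-M1 turned the other way, from 8.42, 8.35 and 8.53 to 7.36, 6.93 and 7.69. The fall of 1.10 ± 0.27 passed narrowly (limma, adjusted p = 0.0383), and the adjusted p was 0.0874 to 0.308 when tamibarotene replicate 1 or 2 or any of the 3 vehicle arrays was left out.

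MV-4-11 read 5.09, 6.07 and 5.24 in vehicle and 4.68, 5.15 and 4.23 after treatment for CD36, with overlapping arrays and a difference of -0.78 ± 0.27 that was not called (limma, adjusted p = 0.0912). Kasumi-1 and KG-1a differed by 0.38 and -0.03 on the main probe set. The other 2 probe sets differed by -0.16 and -0.13 in Kasumi-1 and by -0.085 and 0.25 in KG-1a. Against the mean of the other 6 lines, the CD36 response of Sig-M5 was higher by 2.84 ± 0.33 (limma, adjusted p = 1.79e-07), a test that 22.9% of all genes passed. In the 4 lines where CD36 was called, the other 2 probe sets had differences of the same sign as the main one. These 2 probe sets gave 3.54 and 3.77 in Sig-M5 and -1.09 and -1.18 in OCI-M1. The first of them differed by 1.92 in OCI-AML3 and 1.65 in NOMO-1. The means of the other went from 5.58 to 7.58 in OCI-AML3 and from 2.84 to 3.84 in NOMO-1, a smaller step in NOMO-1 than on the main probe set.

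For the receptors that bear on these genes, promoter windows of 7 members in the RefSeq table (GRCh38.p14) were searched on both strands for direct repeats of AGGTCA with 1, 2, 4 or 5 bases between the copies, called DR1, DR2, DR4 and DR5. PPAR with RXR is known for DR1, LXR with RXR for DR4, and retinoic acid receptor with RXR for DR2 and DR5. A match allowed at most 2 mismatches over the 12 bases of both copies. Of the 22 windows, 6 precede the gene's outermost listed start and 16 precede a later start inside the gene. The 1 window of APOC1 is of the latter kind, so the bases before that gene's outermost start were not searched. Among 6 windows of CD36, 1 that precedes a later start held a DR1 match, AAGTCAgAGGCCA at chr7:80638369-80638381 on the strand opposite to the gene, with 2 mismatches and capitals marking the copies of the repeat.

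LPL, lipoprotein lipase, releases fatty acids from circulating triglycerides. Its vehicle level separated the lines into Sig-M5 (mean 9.86), NOMO-1 (7.52) and OCI-AML3 (5.36), which did not overlap, and 4 lines between 3.39 and 3.56 in which each overlapped the next. In NOMO-1 the level fell from 7.39, 7.11 and 8.06 to 6.52, 6.28 and 6.70. The fall was 1.02 ± 0.16 (limma, adjusted p = 4.86e-05). The high vehicle array was replicate 3, and with NOMO-1 fitted alone, on its own spread, the call was lost (limma, adjusted p = 0.132). In OCI-AML3 it fell from 5.32, 5.26 and 5.50 to 4.65, 4.91 and 4.80. That fall of 0.57 ± 0.16 (limma, adjusted p = 0.0114) was lost without tamibarotene replicate 1 (0.0718) or vehicle replicate 3 (0.0714). Both lines in which LPL fell were lines in which CD36 rose.

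Sig-M5, with the highest LPL level, read 9.85 and 9.87 in vehicle and 10.26, 9.96 and 10.26 with tamibarotene. The arrays did not overlap, but the difference of 0.30 ± 0.17 was not called (limma, adjusted p = 0.211). Its other 2 probe sets differed more, by 1.68 ± 0.22 and 0.91 ± 0.22, and the mean of all 3 gave 0.96 (limma, adjusted p = 4.48e-05). On the probe set with the difference of 1.68, the vehicle arrays read 7.61 and 6.64, the lower value being replicate 2, the array with the actin difference of 1.89. The treated arrays read 8.81, 8.81 and 8.78. The part of RNA quality in this difference between probe sets was not tested. The other LPL probe sets differed by -0.78 and -0.80 in NOMO-1 and by -0.52 and -0.46 in OCI-AML3.

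FABP4, a fatty acid binding protein of adipocytes and macrophages, was below the array median in all 7 lines, and its vehicle level was not shown to differ between lines (limma F, adjusted p = 0.0744), the 1 member of which this was so. For the other 9 members the F test between lines was passed in vehicle, as it was by 78.6% of all genes. NOMO-1 went from 3.53, 3.34 and 3.24 to 3.75, 3.93 and 4.14, with no overlap. The difference of 0.57 ± 0.14 (limma, adjusted p = 0.0112) was lost without tamibarotene replicate 3 (0.0981) or vehicle replicate 3 (0.0868), and with NOMO-1 fitted alone (0.134). In the other lines the differences ran from -0.30 in Sig-M5 to 0.15 in Kasumi-1 and MV-4-11. Of the 7 adipocyte markers, 4 or 5 were above the array median in every group of line and arm. The highest was RETN in Sig-M5 and NOMO-1, with vehicle means of 11.94 and 10.23. It stood apart there, as the rest of the list had vehicle means of 3.65 to 6.70 in Sig-M5 and 3.63 to 6.26 in NOMO-1. In the other lines the highest vehicle mean of the list was only 6.30 to 6.99. Whether a level just above the array median means that a gene is expressed was not tested.

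ABCA1, the pump that loads cholesterol onto lipid-poor apolipoproteins and a known LXR target, was called in Sig-M5 and in no other line. The Sig-M5 vehicle arrays read 5.67 and 5.78 and the tamibarotene arrays 7.38, 7.27 and 7.30. The rise was 1.59 ± 0.14, or 3.02-fold (limma, adjusted p = 5.82e-10), and Sig-M5 was also the line with the highest vehicle level and the only one above the array median. The other 6 lines had vehicle means of 2.90 to 3.42 and differences of -0.16 to 0.24. Sig-M5 exceeded their mean response by 1.63 ± 0.15 (limma, adjusted p = 2.94e-09). Without either vehicle array the rise was 1.54 or 1.65, and with the actin difference as a covariate it was 1.57.

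The other 2 probe sets of ABCA1 in Sig-M5 gave 0.40 ± 0.17 and 0.07 ± 0.09. On the first of them the treated arrays read 4.43, 3.84 and 3.70 and the vehicle arrays 3.43 and 3.76, which overlap. The second had means of 2.57 in vehicle and 2.65 with tamibarotene, far below the array median. The mean of the 3 probe sets rose by 0.69 and was still called by limma. The RefSeq table held 1 promoter window of ABCA1, before the gene's outermost start, shown because it carries a match to the DR4 that LXR with RXR is known for. Its 250 bases come from GRCh38.p14 chr9:104928156-104928405 on the minus strand, with the copies of the repeat in capitals.
ABCA1: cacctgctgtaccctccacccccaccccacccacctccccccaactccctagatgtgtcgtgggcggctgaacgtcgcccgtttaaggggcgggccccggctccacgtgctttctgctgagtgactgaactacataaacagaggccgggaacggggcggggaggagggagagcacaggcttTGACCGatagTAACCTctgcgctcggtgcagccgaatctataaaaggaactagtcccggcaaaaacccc
Read on the strand opposite to the gene the match is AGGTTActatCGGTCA, at positions -69 to -54 from the start (chr9:104928209-104928224), with 2 mismatches. A DR4 match by the same rule was found in 2.34% of the 35116 promoters of the table, and the match is a description of the sequence alone.

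ABCG1, the pump that passes cholesterol on to HDL, was highest in KG-1a, where vehicle read 6.03 and 6.38 and tamibarotene 6.10, 6.20 and 6.35. MV-4-11 came next at a mean of 5.14, and the remaining 5 lines lay between 4.57 and 4.96, each overlapping the next. The differences ran from -0.25 in MV-4-11 to 0.19 in Kasumi-1. The KG-1a difference was 0.01, with a 95% interval of -0.36 to 0.38. The response did not differ detectably between lines (limma F, adjusted p = 0.528). All 5 probe sets were highest in KG-1a, with vehicle means there of 5.95 to 7.54. Sig-M5, in which ABCA1 rose, had an ABCG1 difference of -0.10.

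CYP27A1, the mitochondrial sterol 27-hydroxylase that makes an LXR-activating oxysterol and opens the acidic path of bile acid synthesis, rose 8.02-fold in NOMO-1 and was called in no other line. The vehicle means of the 7 lines spanned 0.78, from 5.35 in Kasumi-1 to 6.13 in Sig-M5, and each line's arrays overlapped those of the next in order. NOMO-1 vehicle read 6.27, 6.24 and 5.86 and tamibarotene 9.18, 9.18 and 9.02. The difference was 3.00 ± 0.13 (limma, adjusted p = 5.33e-17), and it exceeded the mean response of the other lines by 2.90 ± 0.14 (limma, adjusted p = 4.66e-15), a test that 2.61% of all genes passed. Kasumi-1 went from 5.29 and 5.41 to 5.88, 5.84 and 5.80, without overlap. Its difference of 0.49 ± 0.14 just missed the threshold (limma, adjusted p = 0.0504). Vehicle replicate 2, at 5.29, was the array with the actin difference of 1.18. The remaining 5 lines differed by -0.09 to 0.13. CYP27A1 had a single probe set, and its 1 promoter window, before the outermost start, held no match to the repeats.

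**Figure D2:**
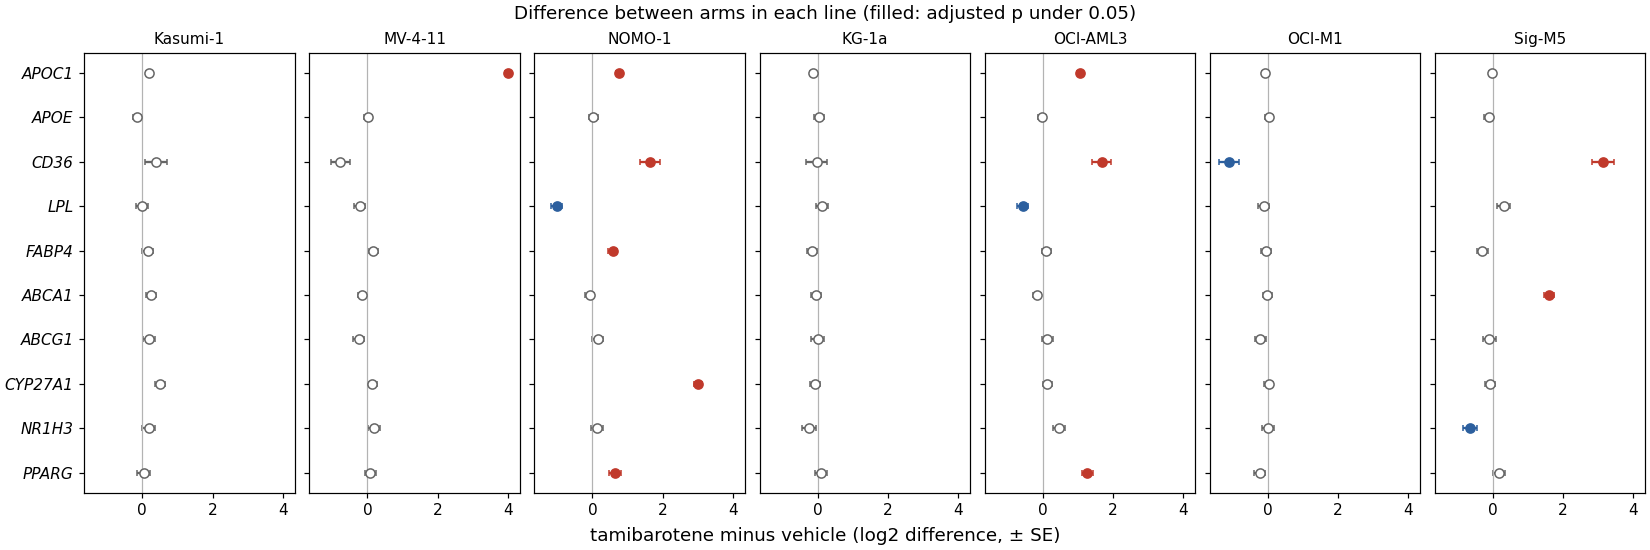
Tamibarotene minus vehicle (log2) for the 10 genes in each line, with the standard error of limma as bars. Filled red points rose and filled blue points fell at an adjusted p under 0.05, and open points were not called. NOMO-1 shows 5 rises and 1 fall, Kasumi-1 and KG-1a none, and the farthest points are APOC1 in MV-4-11 at 3.99 and CD36 in Sig-M5 at 3.14.

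Of the receptors themselves, NR1H3, which encodes LXR-alpha, had its highest vehicle mean in OCI-AML3 (7.31) and its lowest in Sig-M5 (4.86), the line in which the LXR target ABCA1 was highest. OCI-M1 (6.47) and KG-1a (6.43) overlapped, as did NOMO-1 (5.73), MV-4-11 (5.63) and Kasumi-1 (5.48) each with the next. In Sig-M5 the level fell from 4.88 and 4.84 to 3.90, 4.60 and 4.14. The fall was 0.64 ± 0.19 (limma, adjusted p = 0.0132). Without vehicle replicate 1 or 2 the difference was -0.62 or -0.66, and with the actin difference as a covariate -0.61, of similar size but no longer called (limma, adjusted p = 0.0664, 0.0767 and 0.211). Without tamibarotene replicate 1 it was -0.49 (limma, adjusted p = 0.0836). In OCI-AML3 the arrays went from 7.28, 7.42 and 7.23 to 7.85, 7.75 and 7.73. They did not overlap, yet the difference of 0.47 ± 0.17 was not called (limma, adjusted p = 0.0838), though it was with array weights (0.000134) and with the line fitted alone (0.00893). The other 5 lines differed by -0.25 to 0.19. None of the 4 NR1H3 promoter windows held a match to the repeats.

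PPARG, the gene of PPAR-gamma, was above the rest, without overlap, in NOMO-1 (vehicle mean 5.81) and OCI-AML3 (5.09), and the other 5 lines lay between 2.96 and 3.35, each overlapping the next. It rose in both of those lines. OCI-AML3 went from 4.69, 5.22 and 5.36 to 6.36, 6.26 and 6.46, a rise of 1.27 ± 0.16, or 2.41-fold (limma, adjusted p = 4.25e-07). NOMO-1 went from 5.79, 5.95 and 5.68 to 6.61, 6.41 and 6.33. That rise of 0.64 ± 0.16 (limma, adjusted p = 0.0152) was lost without tamibarotene replicate 1 (0.108), vehicle replicate 1 (0.0551) or vehicle replicate 3 (0.098), and with the line fitted alone (0.0617). The treated means were 6.45 in NOMO-1 and 6.36 in OCI-AML3. Differences in the other 5 lines reached 0.17 in Sig-M5 and -0.24 in OCI-M1. OCI-AML3 exceeded the mean response of the other lines by 1.14 ± 0.17 (limma, adjusted p = 2.46e-05), a test that 7.83% of all genes passed. The other probe set differed by 0.86 ± 0.15 in NOMO-1 and 1.48 ± 0.15 in OCI-AML3.

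PPARG had 6 promoter windows in the RefSeq table, of which 4 held a match to a repeat. The nearest to the consensus, a DR5 with 1 mismatch, lies in 2 of these overlapping windows, at chr3:12289046-12289062. One window is shown because a DR5 is the repeat that retinoic acid receptor with RXR is known for, and the drug is an agonist of that receptor. It precedes a later start inside the gene and is GRCh38.p14 chr3:12288820-12289069 on the plus strand, with the copies of the repeat in capitals.
PPARG: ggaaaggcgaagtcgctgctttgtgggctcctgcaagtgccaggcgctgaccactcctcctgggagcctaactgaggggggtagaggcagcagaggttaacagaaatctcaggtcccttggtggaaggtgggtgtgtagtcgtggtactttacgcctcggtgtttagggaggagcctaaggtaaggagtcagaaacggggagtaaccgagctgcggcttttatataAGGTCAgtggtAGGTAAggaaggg
The match reads AGGTCAgtggtAGGTAA and ends 8 bases before the start of that window's transcript. Another PPARG promoter held the DR5 match AGGAAAagaaaAGGTCA, and a further one the DR2 match ATGTCAcaAGGTCC, each with 2 mismatches. Of all promoters in the table, 2.47% held a DR5 match, 2.17% a DR2 match and 2.97% a DR1 match. Over the 22 windows, 6 held a match, those of ABCA1, CD36 and PPARG.

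**Figure D3:**
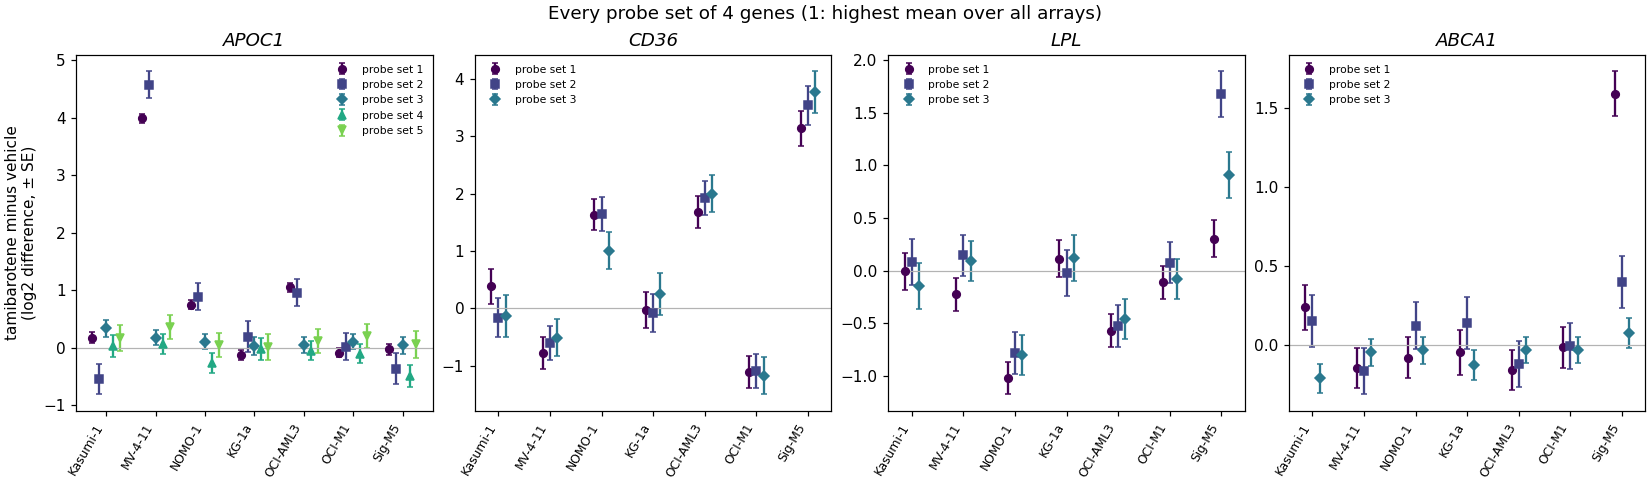
Tamibarotene minus vehicle (log2, with standard errors) of every probe set of APOC1, CD36, LPL and ABCA1 in each line, where probe set 1 has the highest mean over all arrays. The 3 probe sets of CD36 share a sign in Sig-M5, OCI-AML3, NOMO-1 and OCI-M1 but not in Kasumi-1 or KG-1a. Only the first 2 of the 5 of APOC1 show the rise in MV-4-11, and in Sig-M5 the 3 probe sets of ABCA1 read 1.59, 0.40 and 0.07.

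Set side by side, NOMO-1 and OCI-AML3 shared rises of APOC1, CD36 and PPARG and a fall of LPL. CYP27A1 and FABP4 were called in NOMO-1 alone. Sig-M5 had the rises of CD36 and ABCA1 with a fall of NR1H3, and no call of PPARG, whose difference there was 0.17. MV-4-11 had APOC1 alone. In Sig-M5 the LXR-alpha gene and its target ABCA1 moved in opposite directions, and in NOMO-1 and OCI-AML3 the PPAR-gamma gene and LPL did. Links between these changes were not tested. Several of the changes, such as that of NR1H3, were no longer called in some alternative runs, as given above. NR1H2, a further LXR receptor gene, had no probe set annotated to its symbol alone and was not measured. Of the 10 macrophage markers, 3 were above the array median in both arms of NOMO-1, OCI-AML3 and Sig-M5, and in MV-4-11 4 in vehicle and 5 with tamibarotene. The median level of the list in vehicle and with tamibarotene was 4.34 and 4.45 in NOMO-1, 4.54 and 4.97 in OCI-AML3, 4.73 and 4.50 in Sig-M5, and 4.83 and 4.99 in MV-4-11. Single markers differed by more than the list. In MV-4-11 the mean of FOLR2, a folate receptor of macrophages, was 4.85 in vehicle and 7.44 with tamibarotene, and that of CD68 was 8.52 and 9.36. In OCI-AML3 VSIG4, a complement receptor of macrophages, had means of 3.86 and 5.27, and CD163, a scavenger receptor for hemoglobin, of 3.92 and 3.20. These 4 were picked after their values were seen. The part of such markers in the members' changes was not tested.

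Of the wider pathway, 59 further genes in 4 lists were looked up and 52 were measured. The lists too were chosen with earlier results of these data known, so their counts are a description. In Sig-M5 13 of the 52 rose and 10 fell, with 8.5% of all genes up and 18.4% down, so the falls are near the background. In MV-4-11 10 rose and 5 fell, against 4.32% and 3.4% of all genes. In OCI-AML3 10 rose and 4 fell, against 5.5% and 6.36%, and in NOMO-1 6 rose and none fell, against 2.77% and 0.711%. OCI-M1 had 2 rises and 2 falls (0.7% and 0.386% of all genes) and Kasumi-1 0 rises and 1 fall (0.48% and 2.36%). KG-1a had neither (1.21% and 1.88%). There 11 of the 52 had an unadjusted p under 0.05 by limma, a share that was not counted over all genes. In NOMO-1 the median difference of the 52 genes was 0.11 against 0.02 over all genes, and in Sig-M5 it was -0.10, the same as over all genes. Averaged over the lines, 12 rose and 8 fell, against 6.71% and 12.4% of all genes. The Sig-M5 vehicle arrays were those with the high actin difference, whose part in these counts was not tested.

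SOAT1, which esterifies cholesterol for storage, rose by 1.73 ± 0.15 in OCI-AML3, 1.69 ± 0.15 in MV-4-11 and 0.78 ± 0.15 in NOMO-1. PSAP, the precursor of the saposins that help lysosomal enzymes degrade sphingolipids, rose by 1.73 ± 0.07 in OCI-AML3 and 1.92 ± 0.08 in Sig-M5. NPC2, which carries cholesterol within lysosomes, rose by 0.71 ± 0.10 in NOMO-1, and ACSL1, which activates fatty acids, by 1.43 ± 0.12 in MV-4-11 and 0.56 ± 0.12 in OCI-M1. These 4 genes, LIPA, the lysosomal acid lipase, and PLIN2 each rose in 4 lines, a group picked out after the values were seen. The share of all genes that rose in 4 lines was not counted. Of the 13 measured genes of uptake and lysosomal handling, 5 rose and 2 fell in Sig-M5 (8.5% and 18.4% of all genes), 4 rose and 1 fell in MV-4-11 (4.32% and 3.4%) and likewise in OCI-AML3 (5.5% and 6.36%), and 3 rose and none fell in NOMO-1 (2.77% and 0.711%). Of the 13 measured genes of sterol storage and oxysterol enzymes, 3 rose and 4 fell in Sig-M5 (8.5% and 18.4% of all genes). In MV-4-11 1 rose and 1 fell (4.32% and 3.4%). In NOMO-1 (2.77% and 0.711%) and OCI-AML3 (5.5% and 6.36%) 1 rose and none fell in each.

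RXRA, the gene of the partner shared by LXR, PPAR and retinoic acid receptors, fell in 3 lines, by 2.35 ± 0.15 in Sig-M5, 0.93 ± 0.13 in MV-4-11 and 0.85 ± 0.13 in OCI-AML3. In NOMO-1, the line with the most called members, it was not called. Of the 14 measured genes of the LXR list, 2 rose and 3 fell in Sig-M5, near the 8.5% and 18.4% of all genes. In MV-4-11 2 rose and 1 fell (4.32% and 3.4%), and in OCI-AML3 1 rose and 2 fell (5.5% and 6.36%). In NOMO-1 1 rose and none fell (2.77% and 0.711%). LPCAT3, an LXR target that remodels phospholipids, rose by 0.54 ± 0.14 in OCI-M1, and MYLIP, an LXR target that degrades the LDL receptor, fell by 0.58 ± 0.14 in Kasumi-1 but rose by 0.69 ± 0.13 in OCI-AML3 and 0.52 ± 0.14 in Sig-M5. Of the 12 measured genes of the PPAR list, 4 rose and 1 fell in OCI-AML3 (5.5% and 6.36% of all genes), 3 rose and 2 fell in MV-4-11 (4.32% and 3.4%), 3 rose and 1 fell in Sig-M5 (8.5% and 18.4%), 1 rose and 1 fell in OCI-M1 (0.7% and 0.386%), and 1 rose in NOMO-1 (2.77%). The fall in OCI-AML3 was FABP5, a fatty acid binding protein, at -0.55 ± 0.11. In Sig-M5, CREG1, a secreted lysosomal glycoprotein, rose by 2.31 ± 0.12 and CPT1A, which admits fatty acids to mitochondria, fell by 0.81 ± 0.09. In MV-4-11 MGLL, monoacylglycerol lipase, fell by 1.74 ± 0.11. PLIN2, which coats lipid droplets, fell by 0.63 ± 0.09 in OCI-M1, as did SMPDL3A, an LXR-induced phosphodiesterase, by 0.57 ± 0.13, which rose by 0.49 ± 0.14 in Sig-M5. Each of these named changes had an adjusted p under 0.05 by limma and no overlap between arms.

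**Figure D4:**
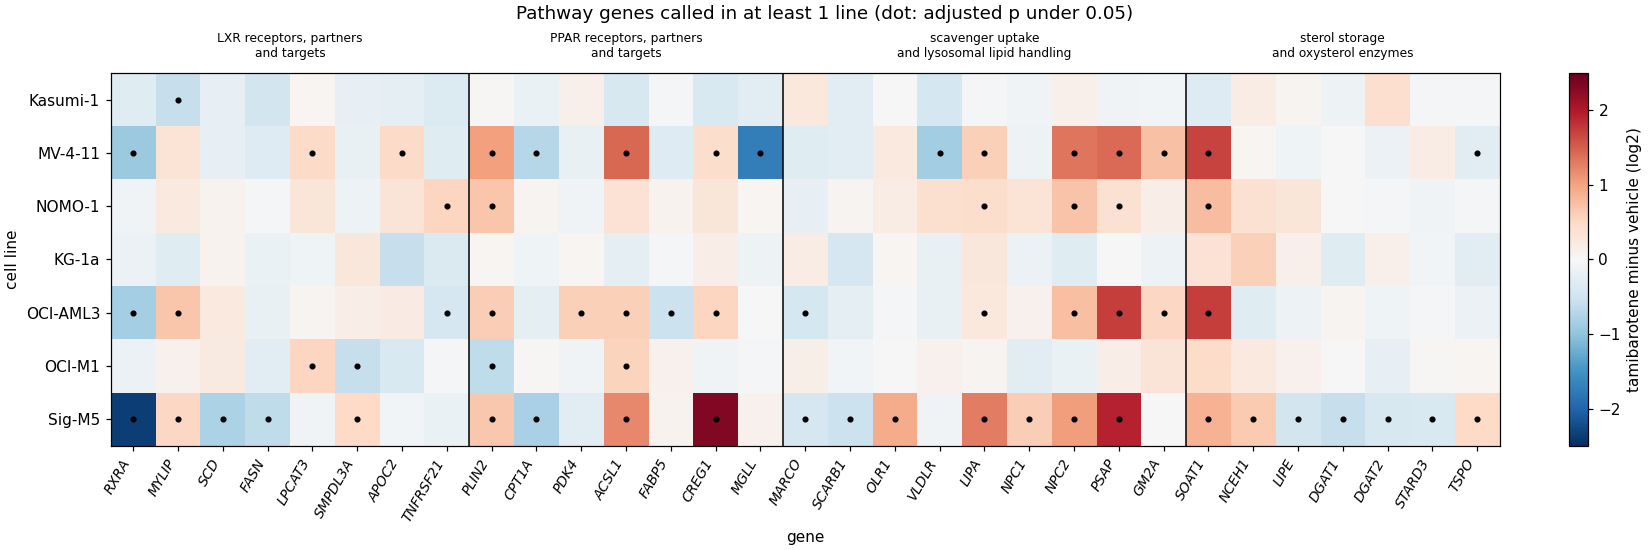
Tamibarotene minus vehicle (log2, colour) in each line for the 31 of 52 measured pathway genes called in at least 1 line, in 4 lists divided by black lines; a dot marks an adjusted p under 0.05 by limma. SOAT1 and PSAP are red with a dot in 4 lines each, RXRA is blue with a dot in 3, and the KG-1a row has no dot.

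Over all 39 arrays, the gene whose level tracked each member most closely was found among all genes tested. For APOE it was BMP6 (Pearson r = 0.996), for ABCA1 TNFAIP6 (0.977), for PPARG VEGFC (0.963), for LPL FAS (0.947) and for APOC1 TMEM51 (0.946). For ABCG1 it was JCHAIN (0.93), for NR1H3 METTL17 (0.916), for CYP27A1 FFAR2 (0.901) and for CD36 PRKCB (0.86). The third most alike gene to APOC1 was TFR2, a transferrin receptor of liver and erythroid cells (0.916), and to LPL it was RETN, resistin (0.932). The 39 arrays come from 7 lines, so arrays of a line are not independent points, and these values are a description. APOE ran from 5.41 to 6.32 without OCI-M1 and up to 12.09 with it. ABCA1 ran from 2.71 to 3.58 without Sig-M5 and up to 7.38 with it. For both genes 1 line therefore largely sets the correlation. APOC1 ran from 5.56 to 10.26 without OCI-M1 and up to 13.73 with it. CYP27A1 read 9.02 to 9.18 on the treated NOMO-1 arrays, and its other group means were at most 6.13. How far single lines set the correlations of APOC1, CYP27A1 and the remaining members was not tested.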

How the data were processed

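RNA of 7 AML lines was hybridised to Affymetrix PrimeView arrays, 21 of tamibarotene and 18 of vehicle. The deposited values are log2 intensities that the authors normalized with RMA (affy), per the submitters' processing notes, and were used as deposited. The genome build and tool versions are not given in the sources used here. RMA pulls arrays to a common distribution, so a shift shared by all genes cannot be seen. Probe sets with several symbols or none were left out.

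All 39 arrays entered 1 limma fit by lmFit and eBayes, without trend or robust options (version 3.58.1, run under R 4.3.3), with a mean for each of 14 groups of line and arm and 25 residual degrees of freedom. Calls needed an adjusted p under 0.05 (Benjamini-Hochberg over 18132 genes) and no minimum fold. A line's response was also tested against the mean of the other 6, and responses and vehicle levels were compared over lines by moderated F tests. Errors are SEs of the fit, those of other probe sets from a fit of all probe sets. The number of arrays limits the precision. The fit was tested on simulated data.

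The named genes are all 10 members in every line, counts of the pathway lists with the 2 largest called rises and falls a line without overlap, and the 3 genes most correlated with each member above the array median in at least 1 line. The members and lists were chosen with earlier results of these data known. Alternatives tried were the mean of a gene's probe sets, every probe set tested, quantile normalization, leaving out the dimmest 25% of genes, array weights, a trended robust prior, the replicate number as a block, the actin difference as a covariate, each line alone, leaving out Kasumi-1 and Sig-M5, and leaving out each array.

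As a check of pairing, the departures of arrays with the same number from the group means were correlated. The pairs ran from 0.118 to 0.371 in OCI-M1, 0.0995 to 0.67 in MV-4-11 and 0.0105 to 0.572 in NOMO-1. In the other lines the lowest pair was negative. The labels state no pairing, so whether arrays of the same number belong together is not known. Promoter sequences are those of RefSeq on GRCh38.p14, matched by symbol for 7 members; they were not part of the arrays. The data.table package (1.17.8) read the values, sequences were handled with Python 3.11.15 and plots with matplotlib 3.10.9.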

Additional observations from a re-analysis of the deposited data

Results flagged for a closer look

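For 8 of the 10 genes the response to tamibarotene differed between the 7 lines by limma's F test of the interaction, adjusted over all genes, of which 27.4% passed. For APOC1 (adjusted p = 7.82e-22) the lines' differences ran from -0.12 in KG-1a to 3.99 in MV-4-11. For CYP27A1 (adjusted p = 6.15e-14) they ran from -0.09 to 3.00, with NOMO-1 far above the rest. CD36 (adjusted p = 6.59e-09) was the gene that rose in some lines and fell in another, with 3.14 in Sig-M5 and -1.10 in OCI-M1. ABCA1 (adjusted p = 1.52e-07) ran from -0.16 to 1.59, PPARG (adjusted p = 9.73e-05) from -0.24 to 1.27 and LPL (adjusted p = 0.000582) from -1.02 to 0.30. NR1H3 (adjusted p = 0.0317) ran from -0.64 in Sig-M5 to 0.47 in OCI-AML3, and FABP4 (adjusted p = 0.0272) from -0.30 in Sig-M5 to 0.57 in NOMO-1. The causes of these differences between lines were not tested.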

How the results depend on the processing

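Of the 15 called differences, 8 were called under every alternative run, 7 were lost under at least 1, and none changed sign. The report gives those losses beside each result. ABCA1, PPARG and FABP4 are among the dimmest 25% of genes and have no value without them, where 5 in place of 8 members passed the F test of response. There 1 member, CYP27A1, was called in Kasumi-1, in place of 0. With the replicate block 1 member was called in Kasumi-1 (CYP27A1) and 2 in MV-4-11 (APOC1 and CD36, adjusted p = 0.0175), in place of 0 and 1. In OCI-M1 the block changed no member's call. With NOMO-1 fitted alone 3 of its 6 members were called. The cause of these changes was not tested. With each array left out in turn, the members called ranged from 0 to 1 in Kasumi-1, 1 to 2 in MV-4-11, 4 to 6 in NOMO-1, 0 to 0 in KG-1a, 3 to 4 in OCI-AML3, 0 to 1 in OCI-M1 and 2 to 3 in Sig-M5. On average over lines 6 to 6 were called, 6 to 8 passed the F test of response and 9 to 10 that of vehicle levels. Where a group keeps 1 array, it is assumed to vary like the other groups. Quantile normalization moved the median of all genes in Sig-M5 from -0.10 to -0.11.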
